A study of Homo sapiens with 6 samples.

Results

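Genes of the contractile and matrix-forming programme of myofibroblasts were followed in HepaRG, an established liver line of human cancer origin, labelled as hepatic stem cells. The genes were chosen by name, with earlier results of these data known: ACTA2, TAGLN, MYL9, CNN1, TPM1, TPM2, VIM, DCN, THY1 and GSN. Of these 10, 7 had a row among the 16659 genes of the table, while MYL9, VIM and THY1 were not analysed here. RNA of cells that received no drug was sequenced in 3 libraries of wild-type HepaRG, the control group, and in 3 libraries of HepaRG labelled as a functional knockout of PXR, the drug-sensing pregnane X receptor encoded by NR1I2. Both groups carry the same labels for line, tissue and culture, and neither a clone nor a knockout method is named. The labels do not tie the libraries of a group to separate cultures. The p-values therefore set differences against a spread between libraries that may be technical only.

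Myofibroblasts are contractile, matrix-producing cells. In injured liver they arise largely from stellate cells and portal fibroblasts, and alpha smooth muscle actin, the product of ACTA2, is their usual marker. Their contractile apparatus consists of actin filaments coated with tropomyosin, calponin and transgelin and pulled by myosin. Many of its genes are switched on by serum response factor (SRF) together with the myocardin-related factors MRTFA and MRTFB, through a short DNA element called the CArG box. Hepatocytes and cultured epithelial cells also use non-muscle forms of the same proteins.

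Levels are given in scaled CPM, reads relative to library size (counts per 1e6 reads) to which the authors had applied a factor per library. Errors of levels are the SD over n = 3 libraries, and log2 fold changes are knockout minus wild type on the log2(scaled CPM + 0.5) scale with their standard error (SE). The steps between low values gave estimated depths, in 1e6 reads, of 11.4 to 20.9 in wild type and 28.2 to 33.4 in the knockout, so every knockout library was deeper. The targeted gene NR1I2 went from 7.63 ± 0.60 to 13.6 ± 0.62 CPM, and a value summed over the gene does not check a functional knockout. The limma fit called 79.9% of 16219 tested genes changed at an adjusted p under 0.05, with 40.3% higher and 39.6% lower in the knockout. Hepatocyte markers moved with the groups: all 5 that were measured rose, and HNF4A, also on that list, was not analysed here. Albumin (ALB) rose from 867 ± 36.1 to 32829 ± 511 CPM and the apolipoprotein gene APOA1 from 2.33 ± 0.13 to 425 ± 15.2 CPM. The part of these markers in the results that follow was not tested.

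Of the 7 measured genes, 6 were above 1 CPM in all 6 libraries and were tested. GSN, ACTA2 and DCN rose several-fold in the knockout, TPM2 rose less than these, TPM1 rose by a small amount and TAGLN fell, while CNN1 was hardly detected. All 6 tested genes passed the threshold of limma, 5 higher and 1 lower, beside 79.9% of all genes. All 6 had groups that did not overlap, as 80.8% of all genes had (40.8% higher and 40.0% lower in the knockout), so neither count stands out from the background. Of the 6, 3 rose by at least 2-fold and none fell by as much. Among all tested genes, 12.6% rose and 10.1% fell by at least 2-fold with an adjusted p under 0.05. The median log2 fold change of the 6 was 1.67, beside 0.01 for all genes tested. Because the genes were chosen with earlier results of these data known, these shares and medians are a description only. In bulk RNA, fewer cells of a type and less RNA per cell cannot be told apart.

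**Figure D1:**
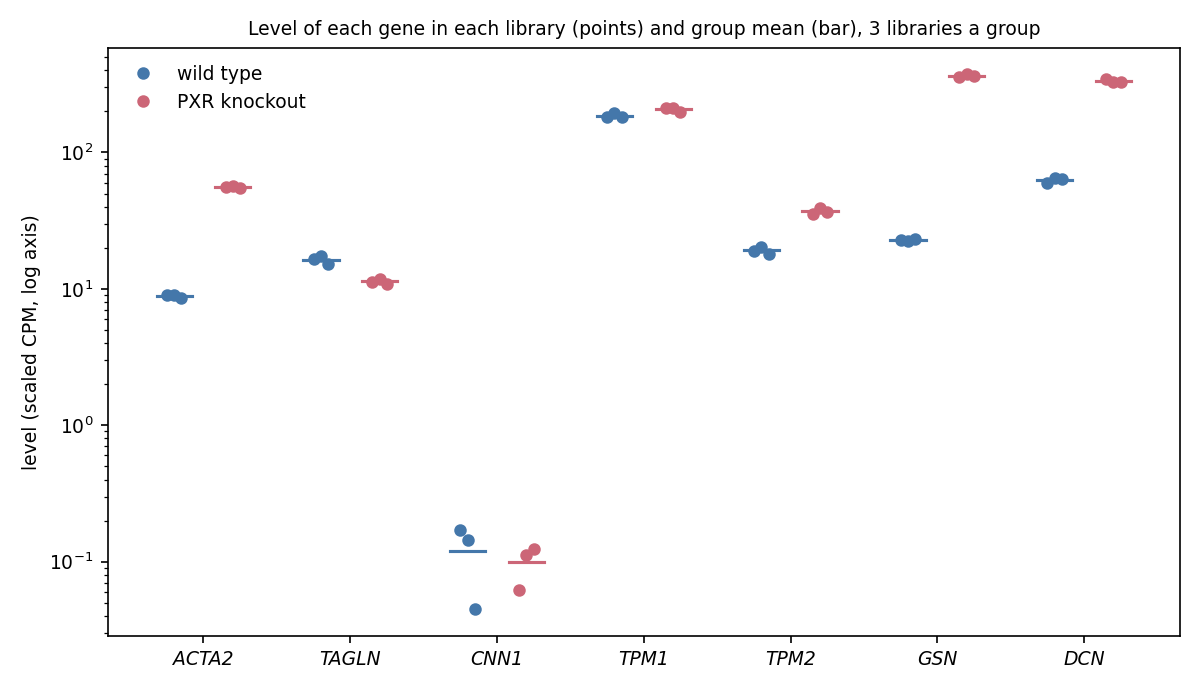
Level of the 7 measured genes in scaled CPM on a log axis, with 1 point per library, bars at the group mean, wild type in blue and the PXR knockout in red. GSN, DCN and ACTA2 stand far apart between the groups, TAGLN is lower in the knockout, TPM1 differs by a small step, and CNN1 lies at a few reads in every library.

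ACTA2 encodes the smooth muscle actin that gives myofibroblasts their contractile fibres (ENSG00000107796.13, chromosome 10, 88935074 to 88991339 in GRCh38, minus strand). One of its annotated starts, at 88952773, lies in an intron of longer ACTA2 transcripts, and the 250 bases before it are shown because they hold the elements through which the gene is known to answer SRF. The sequence is from RefSeq (GRCh38.p14, chr10:88952774-88953023, minus strand, 5′ to 3′), and capitals mark the 2 places that match the CArG box with 1 of its 6 inner letters off.
ACTA2 intronic start: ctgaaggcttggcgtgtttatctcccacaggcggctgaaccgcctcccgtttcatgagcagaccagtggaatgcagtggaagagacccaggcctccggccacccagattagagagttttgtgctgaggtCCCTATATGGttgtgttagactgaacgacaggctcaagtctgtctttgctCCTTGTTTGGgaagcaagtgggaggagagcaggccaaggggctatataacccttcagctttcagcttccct
The matches begin 121 and 71 bases before the start. A CArG box reads the same class of letters on both strands, so 1 search covers both. Of 35116 promoter windows of 300 bases in the RefSeq table, 8.13% held a match with up to 1 inner letter off, 1.29% held a strict match, and 0.69% held at least 2 of the looser kind. Among 13 windows of the 6 named genes that have one (VIM included), the ACTA2 window above was the only one with a looser match and none held a strict one. TAGLN, DCN, MYL9 and THY1 have no window in the table. A match describes letters, and the gene-level values do not say which start was used.

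In wild type, ACTA2 had 9.03, 9.06 and 8.61 CPM in libraries 1 to 3. In the knockout it had 55.6, 56.5 and 54.8 CPM. Every knockout library was far above every wild-type library, and replicates differed by little. The means of 8.90 ± 0.25 and 55.7 ± 0.85 CPM (SD, n = 3 each) were 6.25-fold apart. The log2 fold change was 2.58 ± 0.052 (SE, limma adjusted p = 1.2e-14), and 3.08% of tested genes rose more. The value rests on 490 estimated reads in wild type and 5094 in the knockout.

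FAS, the death receptor gene, begins head to head with ACTA2 on the plus strand and also rose. Its levels were 13.52, 19.00 and 17.00 CPM in wild type and 119.6, 116.2 and 115.2 CPM in the knockout, a 7.09-fold difference of means (log2 2.80 ± 0.086, limma adjusted p = 8.1e-13). The exons of the genes share 380 bases, or 12.8% of the merged exons of ACTA2. The outer ACTA2 start at 88991337 lies 94 bases from a FAS start at 88991431, and their promoter windows overlap by 193 bases. Libraries were made with a stranded kit per the labels, and whether counting used the strand is not given in the sources used here, so reads of the shared stretch cannot be told apart. The part of such reads in the ACTA2 rise was not tested. STAMBPL1, a deubiquitinase gene that overlaps ACTA2 by its span but shares no exon base with it, fell from 11.2 ± 1.02 to 5.96 ± 0.20 CPM.

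TAGLN encodes transgelin, an actin-binding protein of smooth muscle also known as SM22 alpha (ENSG00000149591.16, chromosome 11, 117199321 to 117204782). Its levels were 16.7, 17.3 and 15.2 CPM in wild-type libraries 1 to 3. They were 11.2, 11.9 and 10.9 CPM in knockout libraries 1 to 3. TAGLN was thus lower in every knockout library, without overlap of the groups, while ACTA2 was higher. The means of 16.4 ± 1.04 and 11.3 ± 0.51 CPM differed by 1.45-fold, and the log2 fold change was -0.51 ± 0.073 (SE, limma adjusted p = 1.7e-05).

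PCSK7, a proprotein convertase gene on the opposite strand, overlaps TAGLN at its 3' side and fell too. It had 108.1, 105.0 and 106.8 CPM in wild type and 56.3, 60.2 and 59.2 CPM in the knockout (log2 -0.86 ± 0.035, limma adjusted p = 1.6e-11). The shared exon stretch is 446 bases, or 11.4% of the merged exons of TAGLN, and PCSK7 was the more abundant of the pair. Reads of that stretch cannot be told apart without strand, and their part in the fall of TAGLN was not tested.

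**Figure D2:**
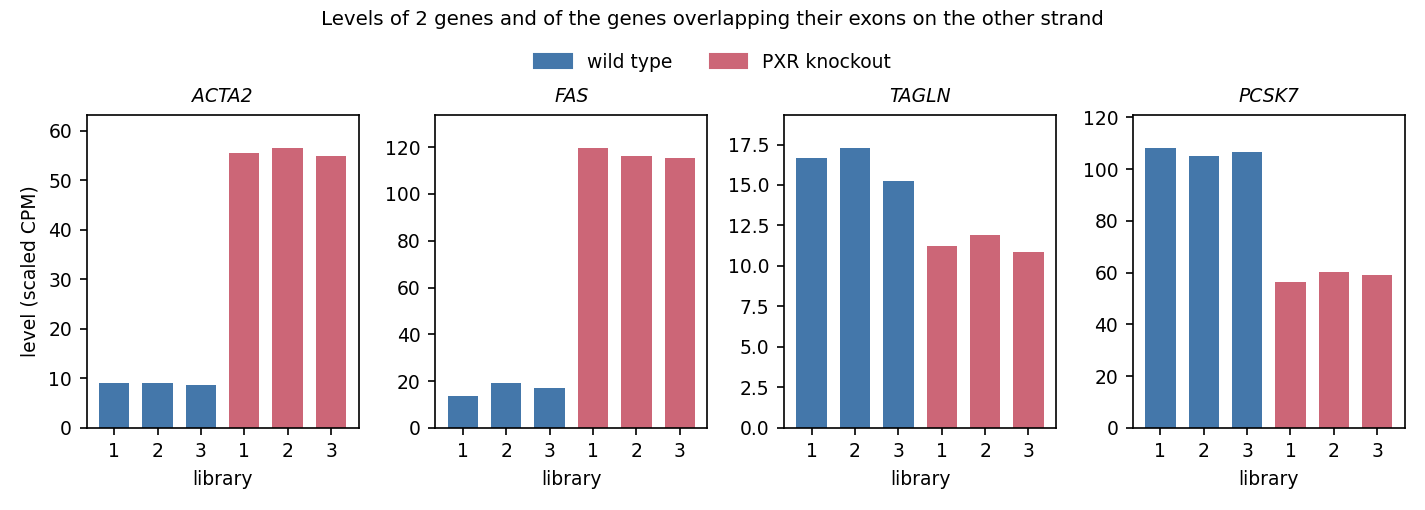
Scaled CPM of ACTA2, FAS, TAGLN and PCSK7 in each of the 6 libraries, with each panel on its own axis from 0. ACTA2 and its opposite-strand neighbour FAS are both high in the 3 knockout libraries, and TAGLN and its opposite-strand neighbour PCSK7 are both low there.

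CNN1, for the smooth muscle calponin that binds actin and damps myosin activity (ENSG00000130176.8, chromosome 19, 11538717 to 11550323), was close to the limit of detection. It had 0.17, 0.14 and 0.045 CPM in wild type and 0.062, 0.11 and 0.12 CPM in the knockout. These are 6.07 estimated reads in all in wild type and 9.01 in the knockout, so no fold is given. CNN1 stayed below 1 CPM in every library of both groups, and a small difference was not detectable at this depth. The smooth muscle genes MYH11, LMOD1, ACTG2 and MYOCD of the marker list were not analysed here. DES and SYNPO2, the only 2 of the 6 markers on that list that were measured, both fell, beside 39.6% lower among all genes. DES passed the filter of 1 CPM in 3 libraries through wild type. The fall of 2 markers is a description only, and the list as a whole was not tested.

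Tropomyosins lie along the actin filament and set which other proteins reach it. TPM1 (ENSG00000140416.21, chromosome 15, 63042632 to 63071915) makes muscle and non-muscle forms. It had 182.8, 193.5 and 182.4 CPM in wild type and 211.6, 211.8 and 199.5 CPM in the knockout. The groups did not overlap, although the lowest knockout library was close to the highest wild-type one. The log2 fold change was 0.16 ± 0.033 (SE, limma adjusted p = 0.00057). This call was lost with every library brought to the same sum, where the median of all genes was -0.12 and TPM1 was at 0.02 (limma adjusted p = 0.607), and with quantile normalization (0.03, limma adjusted p = 0.414).

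TPM2 encodes beta-tropomyosin (ENSG00000198467.14, chromosome 9, 35681992 to 35690121). It had 19.0, 20.4 and 18.1 CPM in wild type and 35.2, 39.4 and 36.8 CPM in the knockout. All knockout libraries were above all wild-type libraries, and the means were 1.94-fold apart (log2 0.94 ± 0.060, limma adjusted p = 2.6e-09). The 115 other tested genes within 10 Mb of TPM2 had a median log2 fold change of 0.48. With that median subtracted, the value for TPM2 was 0.46 (limma adjusted p = 7.0e-06). This p takes the median as fixed and measures the spread between libraries, not the spread among the neighbours. Those ran from -1.04 (ATP8B5P) to 3.48 (GXYLT1P3), and whether TPM2 stands apart from them was not tested.

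The levels of the other tropomyosin genes, TPM3 and TPM4, went the opposite way. TPM3 fell from 281 ± 2.96 to 188 ± 4.78 CPM. TPM4 fell from 453 ± 8.02 to 126 ± 2.67 CPM, a log2 fold change of -1.85 ± 0.027 (SE, limma adjusted p = 3.8e-16). TPM1 and TPM2 together made up 21.4%, 22.7% and 21.4% of the summed tropomyosin CPM in wild type and 44.0%, 44.2% and 43.3% in the knockout. TPM4 made up 48.2% ± 0.94 and 22.5% ± 0.58 (SD, n = 3 each), so it was the most abundant by this measure in wild type and the third in the knockout. The share of TPM3 rose from 29.9% ± 0.29 to 33.7% ± 0.55 although its level fell, so only TPM4 lost share. The shares did not overlap between groups, and neither did the levels of 80.8% of all tested genes. The exact permutation test, two-sided, gave p = 0.1 for each of the 6 shares computed (0.1 after Benjamini-Hochberg adjustment). That is the smallest p that 3 libraries against 3 allow.

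**Figure D3:**
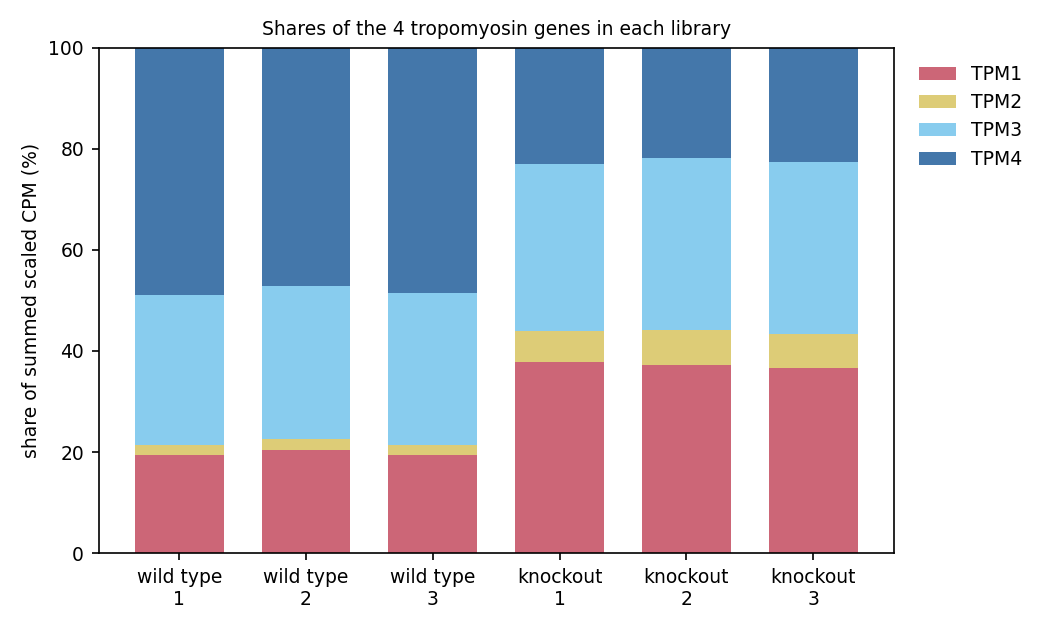
Percent of the summed scaled CPM of TPM1, TPM2, TPM3 and TPM4 that each gene takes, 1 stacked bar per library. The TPM4 part is near 48.2% in the wild-type bars and near 22.5% in the knockout bars, and the TPM1, TPM2 and TPM3 parts are larger in the knockout.

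A ratio within a library cancels the factor of that library, apart from the 0.5 added to each value. The log2 ratio of TPM1 to TPM4 went from -1.28 ± 0.072 to 0.72 ± 0.041, and that of TPM1 to TPM2 from 3.25 ± 0.046 to 2.47 ± 0.089. For ACTA2 to ACTB, the cytoplasmic beta-actin gene, it went from -8.01 ± 0.061 to -5.75 ± 0.042, a difference of 2.26. ACTA2 was 0.26% ± 0.010 of the summed CPM of ACTA2, ACTB and ACTG1 in wild type and 1.45% ± 0.042 in the knockout. The ratio of TAGLN to TAGLN2, its more widely expressed relative, went from -3.92 ± 0.087 to -4.26 ± 0.064. Each of the 5 ratios that could be formed, of 9 fixed, had groups that did not overlap. Each had p = 0.1 by the exact permutation test, two-sided (0.1 after adjustment over the 5). Groups did not overlap for 80.8% of all tested genes either, and the share among all possible ratios was not computed.

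GSN encodes gelsolin, which cuts and caps actin filaments and is also secreted into plasma (ENSG00000148180.19, chromosome 9, 121207794 to 121332843). It had 23.0, 22.6 and 23.3 CPM in wild-type libraries 1 to 3. It had 359.1, 373.1 and 366.0 CPM in knockout libraries 1 to 3. The gap between the groups was far larger than the spread within either. The means of 23.0 ± 0.39 and 366.1 ± 7.01 CPM were 15.9-fold apart, with a log2 fold change of 3.97 ± 0.031 (SE, limma adjusted p = 7.7e-19). Of all tested genes, 1.10% rose more. RAB14, a vesicle traffic gene that overlaps GSN by its span but shares no exon base with it, rose from 78.8 ± 2.78 to 100.6 ± 1.46 CPM.

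Among the relatives of gelsolin, 3 of 6 tested rose and 2 fell, near the 40.3% higher and 39.6% lower of all genes, with a median log2 fold change of 0.36 (0.23 with libraries of equal sums). VIL1, for the villin of intestinal and bile duct microvilli, had 0.88 ± 0.12 CPM in wild type and 14.5 ± 0.86 CPM in the knockout. It passed the filter of 1 CPM in 3 libraries through the knockout, where it is high, so its call is a description. AVIL, for advillin, rose from 5.94 ± 0.14 to 10.9 ± 0.16 CPM. SVIL, for supervillin, fell from 56.92 ± 2.34 to 27.97 ± 0.48 CPM, and the capping protein gene CAPG fell from 2.31 ± 0.21 to 1.41 ± 0.29 CPM. The log2 ratio of GSN to CAPG was 3.06 ± 0.082 in wild type and 7.59 ± 0.25 in the knockout.

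DCN encodes decorin, a small proteoglycan that binds collagen fibrils and TGF-beta (ENSG00000011465.17, chromosome 12, 91140484 to 91183123). Its levels were 60.2, 65.2 and 63.9 CPM in wild type and 345.1, 327.1 and 331.4 CPM in the knockout. No knockout library came near a wild-type one, and the means of 63.1 ± 2.61 and 334.5 ± 9.40 CPM were 5.30-fold apart. The log2 fold change was 2.40 ± 0.035 (SE, limma adjusted p = 3.3e-16), and 3.45% of tested genes rose more.

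The other measured small leucine-rich proteoglycan genes, LUM and EPYC, lie beside DCN on chromosome 12. LUM, for lumican, rose from 20.4 ± 1.33 to 90.5 ± 3.19 CPM, a log2 fold change of 2.12 ± 0.050 (limma adjusted p = 5.6e-14). EPYC, for epiphycan, had 0.19 ± 0.053 CPM in wild type, or 10 estimated reads over 3 libraries, and 4.70 ± 0.53 CPM in the knockout. It passed the filter only through the knockout libraries, so its values are a description. The 70 other tested genes within 10 Mb of DCN had a median log2 fold change of 0.37, and all 843 others on chromosome 12 one of 0.33. With the window's median subtracted, DCN was at 2.02 (limma adjusted p = 2.0e-15), where the p again leaves out the spread among the neighbours.

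Around the remaining genes the medians within 10 Mb were 0.17 for ACTA2 (116 genes), -0.05 for TAGLN (143 genes), -0.15 for TPM1 (128 genes) and -0.02 for GSN (172 genes). With these subtracted the values were 2.41, -0.46, 0.31 and 3.99, all past the threshold of limma. That threshold takes each median as fixed, so it does not test a gene against the spread of its neighbours. Near GSN, the complement gene C5 had a log2 fold change of 4.97 and STOM, for the membrane protein stomatin, one of 1.96, both noted after their values were seen.

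**Figure D4:**
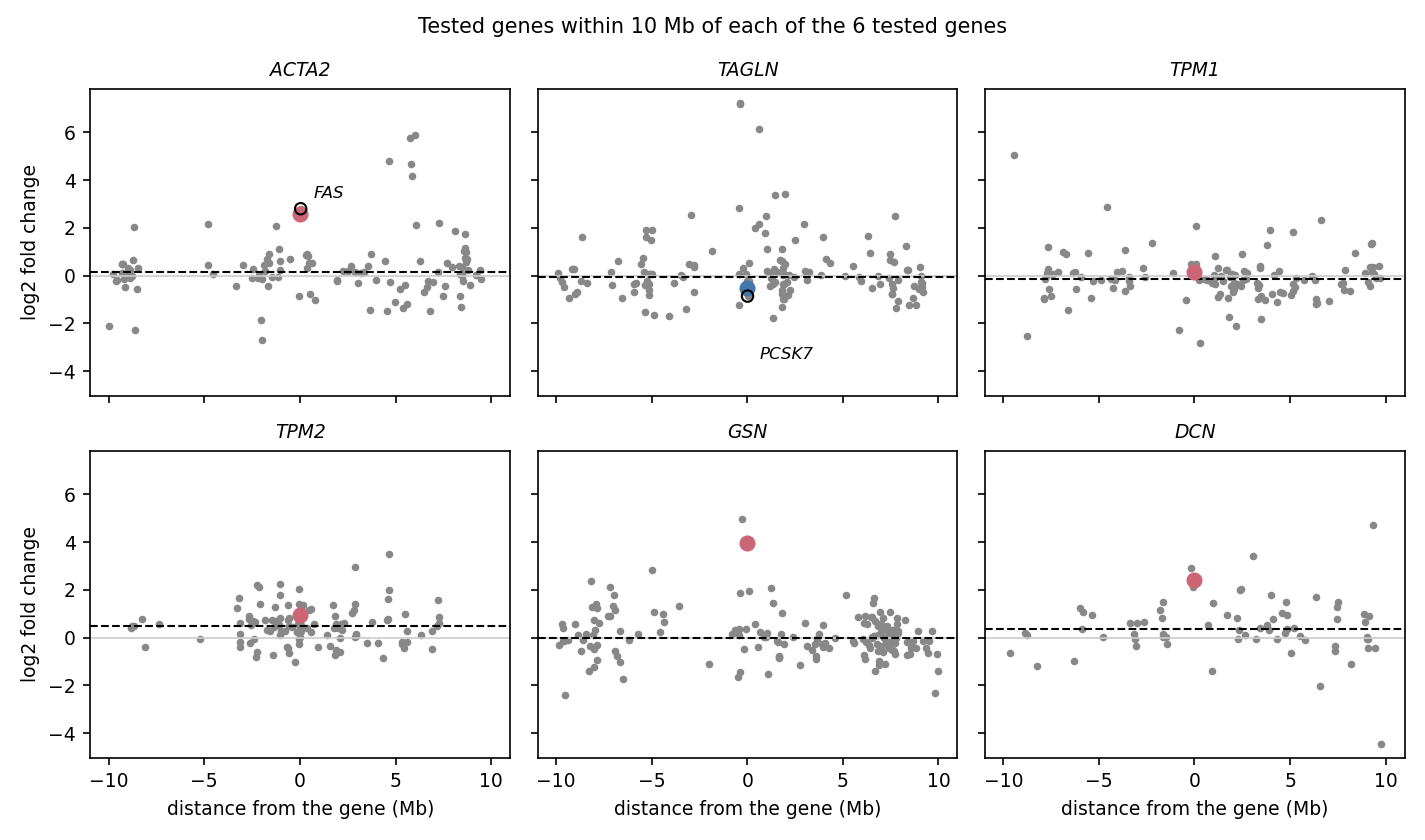
Log2 fold change of every tested gene within 10 Mb of each of the 6 tested genes, against distance in Mb between gene centres; the coloured point is the gene itself, the dashed line the median of its neighbours, and open circles FAS and PCSK7. GSN, ACTA2 and DCN stand well above the dashed lines, while TPM2 lies in a window whose median is itself raised to 0.48.

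Levels of different genes were set side by side per kilobase of merged exons. In wild type the order was TPM1 (14.5 ± 0.49 CPM per kb), TPM2 (5.91 ± 0.37), DCN (4.91 ± 0.20), TAGLN (4.19 ± 0.27), ACTA2 (2.99 ± 0.085) and GSN (2.08 ± 0.035). In the knockout it was GSN (33.2 ± 0.64 CPM per kb), DCN (26.0 ± 0.73), ACTA2 (18.7 ± 0.29), TPM1 (16.1 ± 0.55), TPM2 (11.4 ± 0.65) and TAGLN (2.89 ± 0.13). GSN thus moved from the last of the 6 to the first. Neighbours in each order were apart by more than their SDs, but the order rests on the length used: with the longest transcript, ACTA2 stood above TAGLN in wild type, and TPM1 above DCN and ACTA2 in the knockout.

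Of 25 tested genes for contractile and actin-binding proteins, 9 rose, 14 fell and 2 did not pass, beside 40.3% higher and 39.6% lower among all genes. Their median log2 fold change was -0.18, beside 0.01 for all genes. It was -0.31 with libraries of equal sums and -0.29 with quantile normalization, where the medians of all genes were -0.12 and -0.055. The list as a whole was not tested. CALD1, for caldesmon, and MYL6, for a myosin light chain, rose most, from 186.2 ± 4.37 to 400.9 ± 1.36 CPM and from 436 ± 11.4 to 706 ± 11.1 CPM. The largest falls were those of TPM4 and of SMTN, for the smooth muscle protein smoothelin, which fell from 26.3 ± 0.40 to 7.98 ± 0.58 CPM. MYH9, the main non-muscle myosin heavy chain gene, fell from 851 ± 7.77 to 355 ± 9.41 CPM. Another such gene, MYH10, rose from 85.2 ± 2.64 to 112 ± 1.76 CPM. The myosin light chain genes MYL12A and MYL12B rose from 352 ± 2.81 to 499 ± 11.7 CPM and from 334 ± 8.51 to 405 ± 7.86 CPM. FLNA, for the actin cross-linker filamin A, fell from 691 ± 10.5 to 322 ± 14.9 CPM. MYH9, MYH10, MYL12A, MYL12B and FLNA were named after their values were seen. ACTB rose from 2417 ± 37.6 to 3017 ± 69.4 CPM, and ACTG1, the other cytoplasmic actin gene, fell from 1027 ± 7.18 to 774 ± 18.3 CPM. Both actin genes, TPM3 and the keratin genes KRT8 and KRT18 have many near-identical pseudogene copies, so their levels are uncertain where reads could be split.

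SRF, the transcription factor that binds the CArG box, fell from 50.43 ± 1.88 to 27.96 ± 1.42 CPM, a log2 fold change of -0.84 ± 0.049 (limma adjusted p = 9.3e-10). Its partner gene MRTFA fell from 36.9 ± 0.20 to 22.8 ± 1.76 CPM (log2 -0.69 ± 0.056, limma adjusted p = 4.3e-08). MRTFB, named after its values were seen, rose from 25.6 ± 0.64 to 46.99 ± 0.33 CPM. MYOCD, for the muscle-restricted partner myocardin, was not analysed here.

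**Figure D5:**
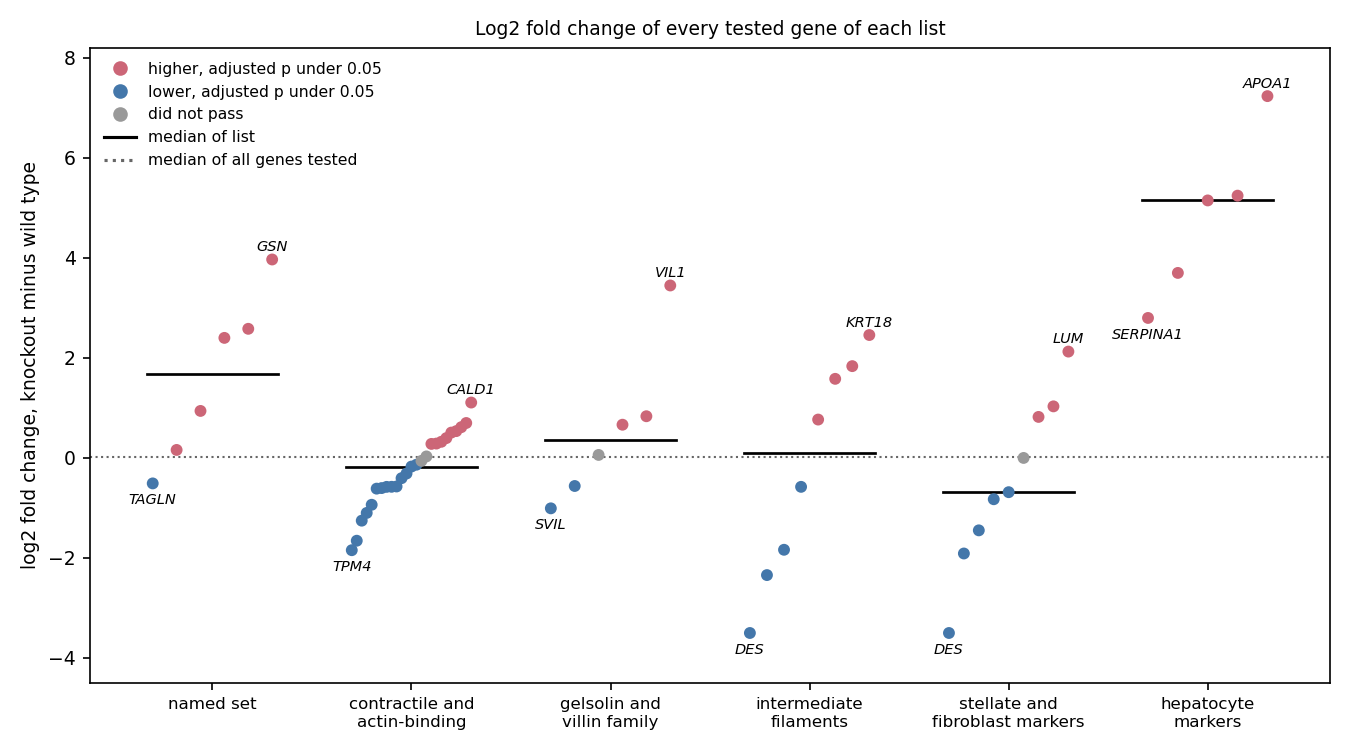
Log2 fold change of each tested gene in 6 lists, coloured by its limma call, with a black bar at the median of the list and a dotted line at the median of all genes tested. The named genes have a median of 1.67, while contractile genes spread on both sides of 0 and the hepatocyte markers lie between 2.80 and 7.23.

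Markers of the cells in which this programme is best known were counted in the same way. Of 9 tested stellate cell and fibroblast markers, 3 rose, 5 fell and 1 did not pass, beside 40.3% higher and 39.6% lower among all genes. Their median log2 fold change was -0.69, and -0.35 without the filter on low values. Of those named, DES and PDGFRB were above 1 CPM in fewer than 3 knockout libraries, so they passed the filter through wild type. LUM and COL3A1, for a fibrillar collagen, rose most, COL3A1 from 2.87 ± 0.49 to 6.33 ± 0.45 CPM. DES, for the intermediate filament protein desmin of stellate and muscle cells, fell from 18.5 ± 0.32 to 1.18 ± 0.19 CPM, and S100A4, a fibroblast marker gene, from 19.1 ± 0.31 to 4.72 ± 0.60 CPM. The receptor gene PDGFRB fell from 2.05 ± 0.25 to 0.44 ± 0.17 CPM, and PDGFRA stayed below the filter at 0.20 ± 0.13 and 0.24 ± 0.067 CPM. The summed level of the 10 measured markers was 251 to 257 CPM in wild-type and 286 to 296 CPM in knockout libraries, most of it POSTN (172.9 ± 2.18 and 172.5 ± 2.66 CPM). Within that sum LUM, which lies beside DCN, went from 20.4 ± 1.33 to 90.5 ± 3.19 CPM, while 5 of the 9 tested markers fell. The higher sum is therefore no rise of these markers as a group. The part of the markers in the rises of ACTA2 and DCN was not tested. HAND2, NGFR, COL1A2 and FAP were not analysed here.

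Of the 6 endothelial markers only PECAM1 was measured, with 1.58 ± 0.055 CPM in wild type and 0.35 ± 0.20 CPM in the knockout, and it passed the filter through wild type. Of the 6 leukocyte markers 3 were measured. CD68 rose from 11.3 ± 1.74 to 19.0 ± 0.44 CPM, LYZ rose from 2.21 ± 0.29 to 2.93 ± 0.39 CPM, and CD14 fell from 2.03 ± 0.071 to 1.55 ± 0.13 CPM. Of 8 tested intermediate filament genes beside vimentin, 4 were higher and 4 lower, near the 40.3% and 39.6% of all genes. The epithelial keratin genes KRT18 and KRT8 rose from 200.3 ± 2.99 to 1101 ± 24.5 CPM and from 375 ± 9.08 to 1337 ± 49.5 CPM. DES had the largest fall, followed by SYNM, for the desmin partner synemin, with 3.13 ± 0.57 CPM in wild type and 0.21 ± 0.11 CPM in the knockout. DES and SYNM passed the filter through wild type.

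The genes whose pattern over the 6 libraries lay nearest to that of GSN, by Euclidean distance of log2 values centred on wild type among 11208 other genes, were FAXDC2 (distance 0.15) and FOLR1 (distance 0.16). They had log2 fold changes of 3.93 and 3.95. Nearest to TAGLN were MYL6B (distance 0.061), for a myosin light chain, and TAF1D (distance 0.074), each with a log2 fold change of -0.53.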

How the data were processed

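RNA of 6 HepaRG libraries was measured, with groups and replicate numbers as the labels give them. The deposited table, named for log2 CPM, holds a linear normalized signal in which the authors had scaled each library. The tools in the submitters' processing notes are Bowtie2, edgeR, limma, Trim Galore and FastQC, and the build is hg38. The sample titles begin with RSEM, the name of a read-counting tool. Versions, strand use in counting and annotation were not given in the sources used here. Only 68.0% to 76.7% of values under 20 estimated reads were whole within 0.006 of a read, so the main test is not a count test. The 14 second pseudoautosomal rows were left out. Of 16659 identifiers, 16608 matched GENCODE 29 (GRCh38), which gave coordinates and exons.

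Genes above 1 CPM in at least 3 of 6 libraries were tested with limma 3.58.1 in R 4.3.3 on log2(scaled CPM + 0.5), by group, with a mean-variance trend, two-sided, Benjamini-Hochberg adjusted over 16219 genes with a threshold of 0.05. The fit was tested on simulated data with known changes. Alternatives covered the pseudocount, filter, scaling, voom weights on estimated reads, a replicate block, single libraries left out, and position. Pairs of replicates differed by a mean chi-square of 2.23 to 9.73 per gene on estimated reads, so none was merged. The genes and lists were chosen with earlier results of these data known. Named were the chosen genes, NR1I2, SRF, MRTFA and MYOCD, the counterparts in ratios, up to 2 largest rises and falls of each list, and the nearest patterns; others were named after their values were seen. Medians are given for lists with at least 5 tested genes. Python 3.11.15 was used for tables and scipy 1.17.1 for exact tests. The results of 1 further gene list are not reported here.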

Additional observations from a re-analysis of the deposited data

How the results depend on the processing

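Calls for ACTA2, TAGLN, TPM2, DCN and GSN held in all 14 alternatives run for each, with log2 fold changes of 2.41 to 2.65, -0.65 to -0.46, 0.46 to 0.98, 2.02 to 2.42 and 3.83 to 3.99. TPM1 lost its call with equal sums (0.019) and quantile normalization (0.030). Replicate numbers do not pair the samples (correlations of same-numbered deviations -0.02, -0.06 and 0.02); a replicate block gave 12916 calls in place of 12960 and changed no call among the 6 genes. Equal sums gave 5358 higher and 7681 lower genes.

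Medians of lists moved with scaling. With equal sums they were -0.31 for contractile genes, 0.23 for gelsolin relatives, -0.026 for intermediate filaments, -0.80 for stellate markers and 5.02 for hepatocyte markers. With quantile normalization they were -0.29, 0.26, -0.064, -0.81 and 5.05. The intermediate filament median of 0.09 was 0.0011 with a pseudocount of 0.1 and -0.0027 with voom weights. The hepatocyte median was 5.24 with a pseudocount of 0.1, 4.96 with 1 and 5.24 with voom, and the stellate median -0.35 without the filter. Leaving out 1 library gave 0.30 to 0.39 for gelsolin relatives and 5.07 to 5.21 for hepatocyte markers.

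Within 5 Mb the neighbours' medians were 0.066 at TAGLN, 0.025 at GSN and 0.52 at DCN. Per kilobase of the longest transcript, levels in wild type and knockout were 6.60 and 41.3 for ACTA2, 4.97 and 3.44 for TAGLN, 47.1 and 52.5 for TPM1, 12.1 and 23.5 for TPM2, 8.82 and 46.7 for DCN and 3.56 and 56.7 for GSN. The causes of these shifts were not tested. Depth limits CNN1, and ratios with MYL9, VIM, CNN1 and BGN were not run.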
